A study of Rattus norvegicus with 12 samples.

Results

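The genes described here encode the machinery of the presynaptic terminal that stores, releases and recycles synaptic vesicles. Of 56 listed genes, 52 had a probe under their own name among 35732 names on the array (66 of 41012 probes). A name was matched without regard to case and after the endings "_predicted" and "_mapped" were removed. Erc2, Cadps2 and Amph were listed under older names and are not counted among the 52 (none was called), and no probe was found for Napb. The rule that matches probes to genes uses no measured value, but the list of genes was drawn up with earlier results of these data known.

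Hippocampal neurons from E18.5 Sprague-Dawley rat embryos were grown as dense primary cultures and treated for 48 h at 10 to 13 days in vitro. The groups received TTX (0.5 to 1 μM), which blocks voltage-gated sodium channels and so action potentials, BC (bicuculline, 20 μM), which blocks GABA-A receptors and so inhibition, or vehicle (CTL). The labels give the CTL vehicle as 0.1% DMSO and the published text describes water, and which of them the arrays stand for was not settled. Total RNA was hybridised to 12 one-color arrays, 4 in each group, to find transcripts that follow a lasting loss or gain of network activity. The embryos shared 1 strain and no group carried a mutation. No source used here ties the 4 samples of a group to separate cultures, so the p-values rest on sample-to-sample spread that may be technical.

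A synaptic vesicle is filled with transmitter, docks at the active zone, is primed by RIM, RIM-binding and MUNC13 proteins, and fuses when calcium binds a synaptotagmin and the SNARE proteins zip together. RAB3 proteins and their effectors bring vesicles to the release site, and dynamin, endophilin, amphiphysin and synaptojanin retrieve the membrane afterwards. In hippocampal neurons, long silencing or overactivity is known to change release from these terminals.

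Values are log2 signals after quantile normalization, so a difference of 1 is a doubling. A gene was called when its brightest probe had a limma adjusted p under 0.05 over all probes and changed at least 1.5-fold. Between 74.12% and 78.08% of probes were well above background on an array, and 49 of the 52 members were so on all 12. Unc13c was well above background on 0 arrays, Sv2c on none of the TTX arrays, and Syt10 on 2 of the 4 TTX arrays. Each of the 4 slides carried a CTL, a TTX and a BC array, and arrays on slides 1 and 3 deviated from their group means in the opposite way to arrays on slides 2 and 4. Differences are therefore given for each pair of slides too. The probes of Sv2c (chr2:26326938-26326997), Rab3c (chr2:41457253-41457312), Syt10 (chr7:128143587-128143646), Doc2b (chr10:63116877-63116936), Rimbp2 (chr12:29011314-29011373), Rph3a (chr12:36752323-36752382), Synj2 (chr1:40818295-40818354) and Sncg (chr16:10026224-10026283) are placed on rn4 by the files, and exons of that build were not used here.

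With TTX, 5 of the 52 members were lower than CTL and 0 were higher. Synj2, Sv2c, Syt10, Sncb and Rph3a made up the 5, and they come from vesicle recycling, the vesicle membrane, calcium sensing, the synuclein family and RAB3 effectors. The called share was 9.62%, where 4.19% of all names on the array were called (1.48% higher and 2.7% lower). By adjusted p alone 8 members were lower and 0 higher, where 9.72% of all names passed either way. At an unadjusted p under 0.05, 5 were higher and 15 lower. No share of all names at an unadjusted p was computed, so such counts have no baseline here or below. In 3 members every TTX array was above every CTL array and in 13 below (7.49% and 8.06% of all names). With dim names left out, the called share of all names was 5.34%. The median difference was -0.10 over the members and 0.01 over all names, and 38 of the 52 differences were negative.

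With BC, 5 members were higher than CTL and 1 was lower. Rimbp2, Sncg, Rab3c, Syt10 and Synj2 were higher, and Doc2b was lower. The called share was 11.5%, against 3.6% of all names (2.14% higher and 1.47% lower). With dim names left out, 4.55% of all names were called. By adjusted p alone 6 were higher and 3 lower, where 8.09% of all names passed either way. The BC and CTL arrays did not overlap in 7 members that were higher and 8 that were lower (7.58% and 6.06% of all names). The median difference was 0.008 over the members and -0.006 over all names, with 26 differences on either side of 0. TTX and BC were compared with the same 4 CTL arrays, so the results are set side by side and not counted as separate evidence.

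TTX set directly against BC gave the most calls, 4 members higher and 10 lower, which is 26.9% of members against 10.9% of all names (4.67% higher and 6.2% lower). In 9 members every TTX array was above every BC array, and in 20 every TTX array was below (12.6% and 13.3% of all names). By adjusted p alone 9 were higher and 19 lower, where 23.4% of all names passed either way. With dim names left out, 13.8% of all names were called and 30.7% passed the adjusted p. Of the 52 members, 38 were called in no comparison and 24 had an adjusted p of 0.05 or more in all 3.

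**Figure D1:**
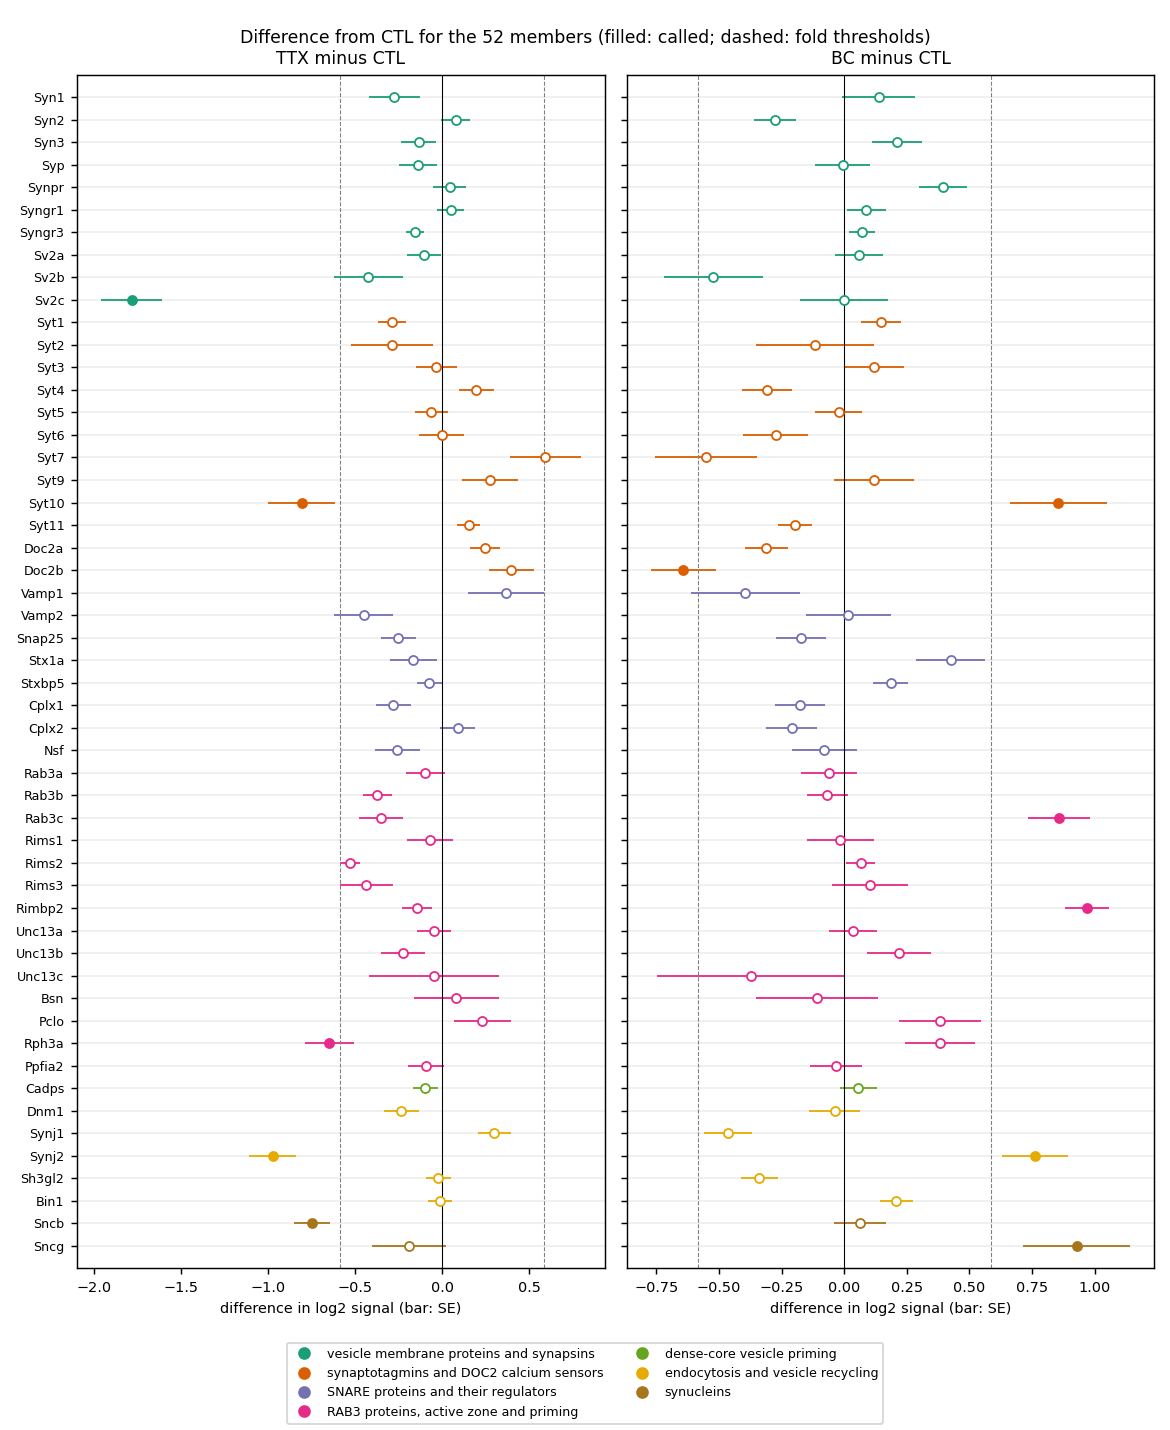
Difference in log2 signal from CTL for each of the 52 members (points, with SE bars), TTX on the left and BC on the right, colored by role, with filled points for called members and dashed lines at the fold thresholds. The 5 filled points of TTX lie below 0, among them Synj2 at -0.97 and Rph3a at -0.65, with Sv2c drawn at its measured value although its change is only a bound, and the BC panel has 5 filled points above 0 and Doc2b at -0.64.

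Vesicle membrane proteins and synapsins were represented by 10 genes, of which 1 was called. Sv2c encodes a transporter-like glycoprotein of the vesicle membrane, less widespread in brain than Sv2a and Sv2b. The Sv2c signal was 4.72, 4.66, 4.59 and 4.31 on the 4 CTL arrays, 3.06, 3.13, 2.40 and 2.55 on the TTX arrays, and 4.38, 4.44, 4.63 and 4.82 on the BC arrays. All TTX arrays lay below all others, and CTL and BC overlapped. Because no TTX array was well above background, the change is given as a bound, with the lowest signal well above background taken as the floor. With that floor and on this signal scale, Sv2c was at least 1.96-fold lower with TTX than with CTL. The measured means were 2.78 and 4.57 (adjusted p = 0.000165). The measured difference was -1.59 on slides 1 and 3 and -1.98 on slides 2 and 4. With normexp background correction it was -0.33 and with the deposited log2 values -0.38, both under the fold threshold and smaller than that bound. With BC the Sv2c difference was -0.0001 (SE 0.176, adjusted p = 1).

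The other 9 genes of this group ranged from -0.42 to 0.08 with TTX and from -0.52 to 0.39 with BC. Synpr, the gene of synaptoporin, a relative of synaptophysin, was 0.39 higher with BC (SE 0.0961, adjusted p = 0.0299), which is under the fold threshold. Syn1, the gene of synapsin I, which tethers vesicles in the reserve pool, differed by -0.28 with TTX (SE 0.146, adjusted p = 0.323) and by 0.14 with BC (adjusted p = 0.724). Syp, which encodes synaptophysin, the most widely used vesicle marker, differed by -0.14 with TTX (SE 0.109, adjusted p = 0.544) and by -0.01 with BC (adjusted p = 0.999). Neither of these standard markers passed the test.

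Synaptotagmins and DOC2 proteins bind calcium through C2 domains, and 2 of their 12 genes were called against CTL. Syt10 encodes a synaptotagmin that acts in regulated secretion. Its signal was 4.67, 4.15, 5.02 and 4.19 with CTL, 3.80, 3.95, 3.44 and 3.61 with TTX, and 5.25, 5.19, 5.44 and 5.58 with BC. The 3 groups did not overlap, with CTL in the middle. Syt10 was 1.75-fold lower with TTX (log2 difference -0.81, SE 0.195, adjusted p = 0.0247) and 1.81-fold higher with BC (0.85, adjusted p = 0.0211). The TTX difference was -0.54 on slides 1 and 3 and -1.08 on slides 2 and 4, and the BC difference 1.09 and 0.62. Each replicate number joins CTL and TTX arrays of the same pair of slides with a BC array of the other pair. Blocking on replicate number, which therefore does not remove the slide difference, ended both calls (adjusted p = 0.0791 and 0.0718). They were also lost when 1 array was left out: the TTX call without CTL replicate 1 or 3 or TTX replicate 3 or 4 (adjusted p from 0.0503 to 0.0724), and the BC call without CTL replicate 2 or 4 or BC replicate 3 or 4 (0.06 to 0.063).

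Doc2b, a high-affinity calcium sensor linked to spontaneous release, had signals of 6.54, 6.32, 6.08 and 6.52 with CTL, 6.82, 6.69, 6.90 and 6.63 with TTX, and 5.96, 5.55, 5.53 and 5.85 with BC. No group overlapped another, and here TTX was the highest and BC the lowest. Doc2b was 1.56-fold lower with BC (-0.64, SE 0.13, adjusted p = 0.012), by -0.74 on slides 1 and 3 and -0.54 on slides 2 and 4. Its difference with TTX was 0.40 (adjusted p = 0.0879). Without BC replicate 3 the BC difference was -0.58, under the fold threshold (adjusted p = 0.0396).

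Syt1, the main sensor of fast release, was 0.29 lower with TTX on its brightest probe (SE 0.0804, adjusted p = 0.048, fold under the threshold) and differed by 0.15 with BC (adjusted p = 0.374). Its other probes differed with TTX by 0.16 (adjusted p = 0.788) and -0.18 (adjusted p = 0.238), so the Syt1 result rests on 1 of 3 probes. Syt7, a slower sensor with high calcium affinity, had 6.47, 6.36, 6.03 and 6.28 with CTL, 6.67, 6.63, 6.63 and 7.57 with TTX, and 5.64, 5.56, 5.76 and 5.97 with BC. TTX replicate 4 stood well above the other TTX arrays. Syt7 was called in TTX against BC (1.14, SE 0.204, adjusted p = 0.00199) and in neither comparison with CTL (0.59, adjusted p = 0.105 for TTX and -0.55, adjusted p = 0.147 for BC). Doc2a, Syt4 and Syt11 were higher with TTX than with BC by 0.56, 0.50 and 0.35, under the fold threshold (adjusted p = 0.000767, 0.00393 and 0.003). Over the group, 7 of 12 differences between TTX and BC were above 0, among them Syt7, Doc2b, Doc2a, Syt4 and Syt11, which passed the adjusted p. Syt10 and Syt1 passed it below 0, Syt1 on its brightest probe only. The other Syt1 probes had 0.38 and -0.07 between TTX and BC (adjusted p = 0.266 and 0.624). The genes of the group that were not called ranged from -0.29 to 0.59 with TTX and from -0.55 to 0.15 with BC.

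**Figure D2:**
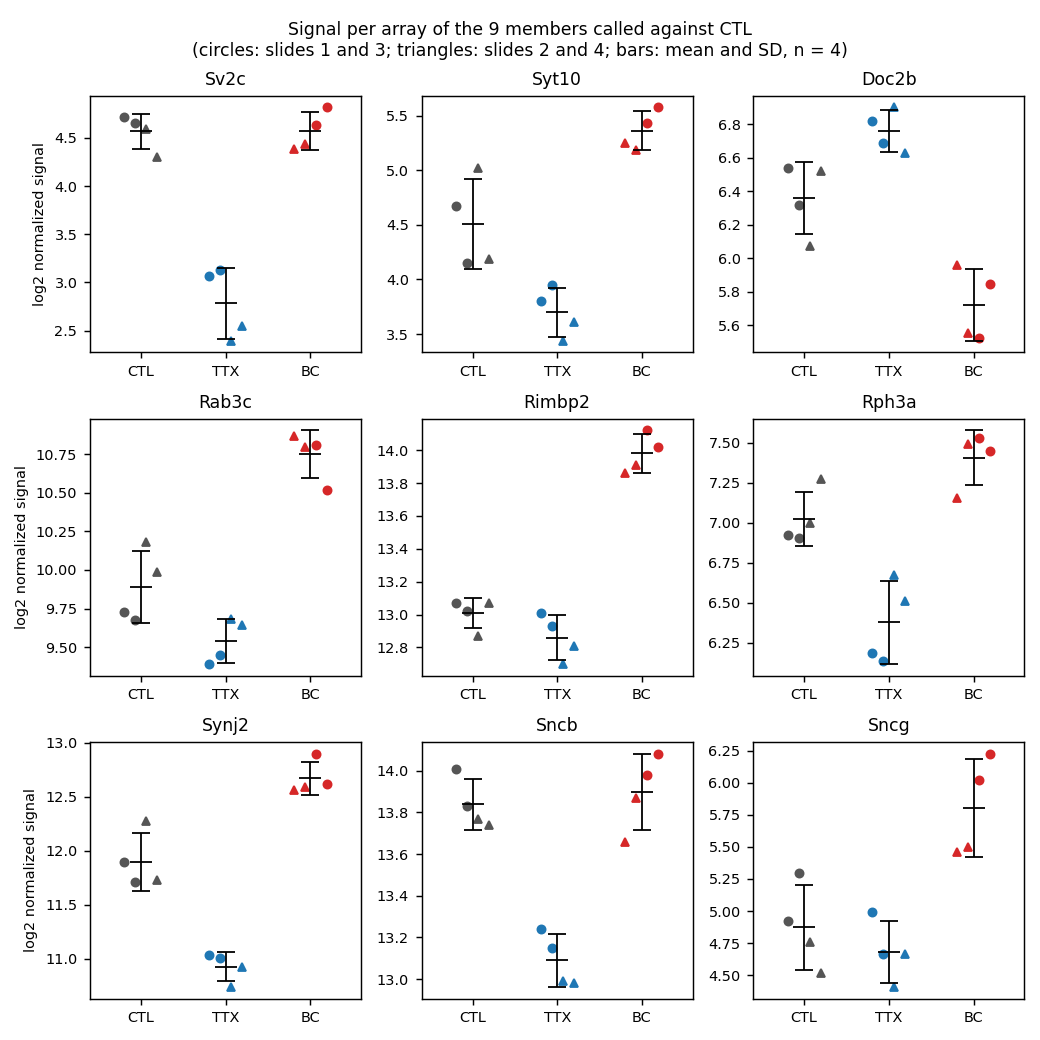
Log2 normalized signal on each array for the 9 members called against CTL, with 1 point per array (circles on slides 1 and 3, triangles on slides 2 and 4) and the mean and SD of 4 arrays. The TTX arrays of Sncb lie between 12.98 and 13.24, below all CTL arrays, and the BC arrays of Rimbp2 between 13.86 and 14.12, above all CTL and TTX arrays.

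None of the 8 genes of SNARE proteins and their regulators was called against CTL, and an unadjusted p under 0.05 was reached by 3 with values under CTL in TTX and 2 with values over CTL in BC. Snap25, the plasma membrane SNARE, differed by -0.25 with TTX (SE 0.0993, adjusted p = 0.159) and by -0.17 with BC (adjusted p = 0.405). Vamp2, the vesicle SNARE synaptobrevin 2, differed by -0.45 with TTX (SE 0.169, adjusted p = 0.137) and by 0.02 with BC (adjusted p = 0.997). The Vamp2 signal on TTX replicate 2 was 14.33, and the other TTX arrays had 14.99 to 15.20.

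Stx1a, which encodes the SNARE syntaxin 1A, differed by -0.17 with TTX (SE 0.137, adjusted p = 0.569) and by 0.43 with BC (adjusted p = 0.0933). Its signal was 11.46, 11.58, 11.43 and 11.45 with TTX and 11.82, 11.98, 12.09 and 12.39 with BC, with no overlap, and Stx1a was called lower in TTX against BC (-0.59, adjusted p = 0.00918). The value lies at the fold threshold of 1.5 (1.51-fold), and without TTX replicate 1, 3 or 4 or BC replicate 3 or 4 it was under it (differences from -0.58 to -0.48). Vamp1, synaptobrevin 1, had 8.45, 8.62, 7.72 and 7.63 with CTL, 8.60, 8.66, 8.23 and 8.39 with TTX, and 7.91, 7.69, 7.50 and 7.75 with BC. TTX lay above BC, and the CTL arrays of slides 1 and 3 were above those of slides 2 and 4. Vamp1 was called higher in TTX against BC (0.76, SE 0.218, adjusted p = 0.0266). The second Vamp1 probe had 0.07 in that comparison (adjusted p = 0.931), and without BC replicate 2, 3 or 4 or TTX replicate 1 or 2 the adjusted p was 0.0538 to 0.0736. Stxbp5, the gene of tomosyn, an inhibitor of SNARE assembly, was 0.26 lower with TTX than with BC (adjusted p = 0.0216), under the fold threshold.

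The active zone and RAB3 group held 14 genes, and 3 were called against CTL. Rimbp2 encodes a RIM-binding protein, which links RIM scaffolds to presynaptic calcium channels. Its signal was 13.07, 13.02, 12.87 and 13.07 with CTL, 13.01, 12.93, 12.70 and 12.81 with TTX, and 13.86, 13.91, 14.12 and 14.02 with BC. All BC arrays were above all others, while CTL and TTX overlapped. Rimbp2 was 1.96-fold higher with BC than with CTL (0.97, SE 0.0867, adjusted p = 0.00011), by 1.03 on slides 1 and 3 and 0.91 on slides 2 and 4, and differed by -0.15 with TTX (adjusted p = 0.386). The other 2 Rimbp2 probes were also called with BC, at 0.82 and 0.80 (adjusted p = 9.51e-05 and 9.48e-05). The last of these lies at chr12:28999712-29008495 (rn4), and since its 60 bases span 8784 bases of genome it crosses at least 1 intron. It is shown here because the largest BC rise among the members repeats on it.

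Rimbp2 probe: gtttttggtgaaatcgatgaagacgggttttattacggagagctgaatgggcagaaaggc

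Rab3c, a small GTPase that rides on synaptic vesicles, had signals of 9.73, 9.67, 10.18 and 9.99 with CTL, 9.39, 9.45, 9.68 and 9.65 with TTX, and 10.87, 10.80, 10.81 and 10.52 with BC. The BC arrays were above all CTL arrays, and TTX and CTL overlapped. Rab3c was 1.81-fold higher with BC (0.86, SE 0.125, adjusted p = 0.00192), by 0.96 on slides 1 and 3 and 0.75 on slides 2 and 4. The Rab3c difference with TTX was -0.35 (adjusted p = 0.118). Rab3b, the gene of a close relative, was 0.37 lower with TTX (SE 0.0826, adjusted p = 0.0163), under the fold threshold, and differed by -0.07 with BC (adjusted p = 0.779). The second Rab3b probe had -0.46 with TTX (adjusted p = 0.0161). Rab3a, the most abundant isoform in brain, differed by -0.10 and -0.06 (adjusted p = 0.712 and 0.89).

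Rph3a encodes rabphilin, which binds RAB3 and RAB27 on vesicles. It had 6.92, 6.91, 7.0 and 7.27 with CTL, 6.19, 6.13, 6.68 and 6.51 with TTX, and 7.16, 7.49, 7.53 and 7.45 with BC. TTX did not overlap CTL or BC. Rph3a was 1.57-fold lower with TTX (-0.65, SE 0.139, adjusted p = 0.0141), by -0.75 on slides 1 and 3 and -0.54 on slides 2 and 4, and its BC difference was 0.38 (adjusted p = 0.141). Without CTL replicate 4 or TTX replicate 1 or 2 the TTX difference was -0.58 to -0.57, under the fold threshold, and with the deposited values it was -0.43.

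Rims2, the gene of the scaffold RIM2, had signals of 9.19, 9.16, 9.21 and 9.09 in CTL, 8.73, 8.60, 8.51 and 8.68 in TTX, and 9.19, 9.25, 9.21 and 9.25 in BC. All TTX arrays were lower. Rims2 was 0.53 lower with TTX than with CTL (1.44-fold, SE 0.0588, adjusted p = 0.000321), just under the fold threshold, and 0.60 lower than with BC (1.51-fold, adjusted p = 3.65e-05), just past it. Scaled to the 75th percentile, the TTX against BC difference was -0.57, and without TTX replicate 3 it was -0.56, both under the threshold. Rims1 differed by -0.07 with TTX (adjusted p = 0.871), and the priming factor gene Unc13a by -0.05 (adjusted p = 0.89). Bsn and Pclo, which encode the large scaffolds bassoon and piccolo, had TTX differences of 0.08 and 0.23 (adjusted p = 0.94 and 0.501). Cadps, a priming factor of dense-core vesicles, differed by -0.10 with TTX and 0.06 with BC (adjusted p = 0.525 and 0.8). Leaving out Unc13c, members of the active zone and RAB3 group that were not called ranged from -0.53 to 0.23 with TTX and from -0.11 to 0.38 with BC.

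Ppfia2, the gene of liprin-alpha-2, an active zone organiser, had a brightest probe that passed in no comparison (-0.09 with TTX and -0.03 with BC, adjusted p = 0.704 and 0.961). Of its other probes, 1 behaved differently: its signal was 8.98 to 9.10 on the CTL arrays, 8.66 to 8.74 on the TTX arrays and 9.39 to 9.53 on the BC arrays, with no overlap between groups. On that probe Ppfia2 was 0.34 lower with TTX (SE 0.052, adjusted p = 0.00214) and 0.43 higher with BC (adjusted p = 0.000616), each under the fold threshold, and 0.77 lower with TTX than with BC (adjusted p = 2.63e-06). The remaining probe had -0.10 and -0.09. The probe that moved lies at chr7:45595111-45598163 (rn4), a span of 3053 bases that holds at least 1 intron, and whether the 3 probes read the same transcripts was not tested. It is shown because it was the one Ppfia2 probe to separate the groups.

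Ppfia2 probe: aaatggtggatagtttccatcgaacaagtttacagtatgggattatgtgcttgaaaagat

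Endocytosis and vesicle recycling genes included a pair of relatives that differed in direction. Synj1 and Synj2 encode synaptojanins, phosphatases that strip phosphoinositides from retrieved vesicles so that the clathrin coat falls off; Synj1 is the main form at nerve terminals. Synj2 had 11.90, 11.71, 12.28 and 11.73 with CTL, 11.04, 11.01, 10.74 and 10.93 with TTX, and 12.56, 12.59, 12.90 and 12.62 with BC. The groups did not overlap, with TTX lowest and BC highest. Synj2 was 1.96-fold lower with TTX (-0.97, SE 0.133, adjusted p = 0.00114), by -0.78 on slides 1 and 3 and -1.17 on slides 2 and 4. It was 1.70-fold higher with BC (0.76, adjusted p = 0.00552), by 0.95 and 0.57 on those slides. Against each other, TTX was 3.33-fold lower than BC (-1.73, adjusted p = 5.95e-06).

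Synj1 had 14.86, 14.96, 14.61 and 14.68 with CTL, 15.22, 15.14, 14.86 and 15.08 with TTX, and 14.32, 14.28, 14.27 and 14.38 with BC. BC was lowest, apart from both other groups, and CTL and TTX overlapped. Synj1 was 0.46 lower with BC than with CTL (SE 0.0959, adjusted p = 0.0133), under the fold threshold, and differed by 0.30 with TTX (adjusted p = 0.0812). TTX was 1.70-fold higher than BC (0.76, adjusted p = 0.000194), by 0.86 on slides 1 and 3 and 0.67 on slides 2 and 4. All 3 Synj1 probes were higher with TTX than with BC, by 0.76, 0.41 and 0.92 (adjusted p from 9.15e-05 to 0.00127). So the synaptojanin relatives moved in opposite directions between TTX and BC, each past the test. Sh3gl2, which encodes endophilin A1, a partner of synaptojanin 1, was 0.34 lower with BC (SE 0.0734, adjusted p = 0.0167) and differed by -0.02 with TTX (adjusted p = 0.948). Dnm1, the gene of the neuronal dynamin that pinches vesicles off, differed by -0.23 with TTX and -0.04 with BC (adjusted p = 0.206 and 0.944). Bin1, an amphiphysin relative, differed by -0.01 with TTX and 0.21 with BC (adjusted p = 0.977 and 0.0904). Amph, measured under its older name, was called in no comparison and was 0.47 higher with TTX than with BC (adjusted p = 0.0166), under the fold threshold.

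**Figure D3:**
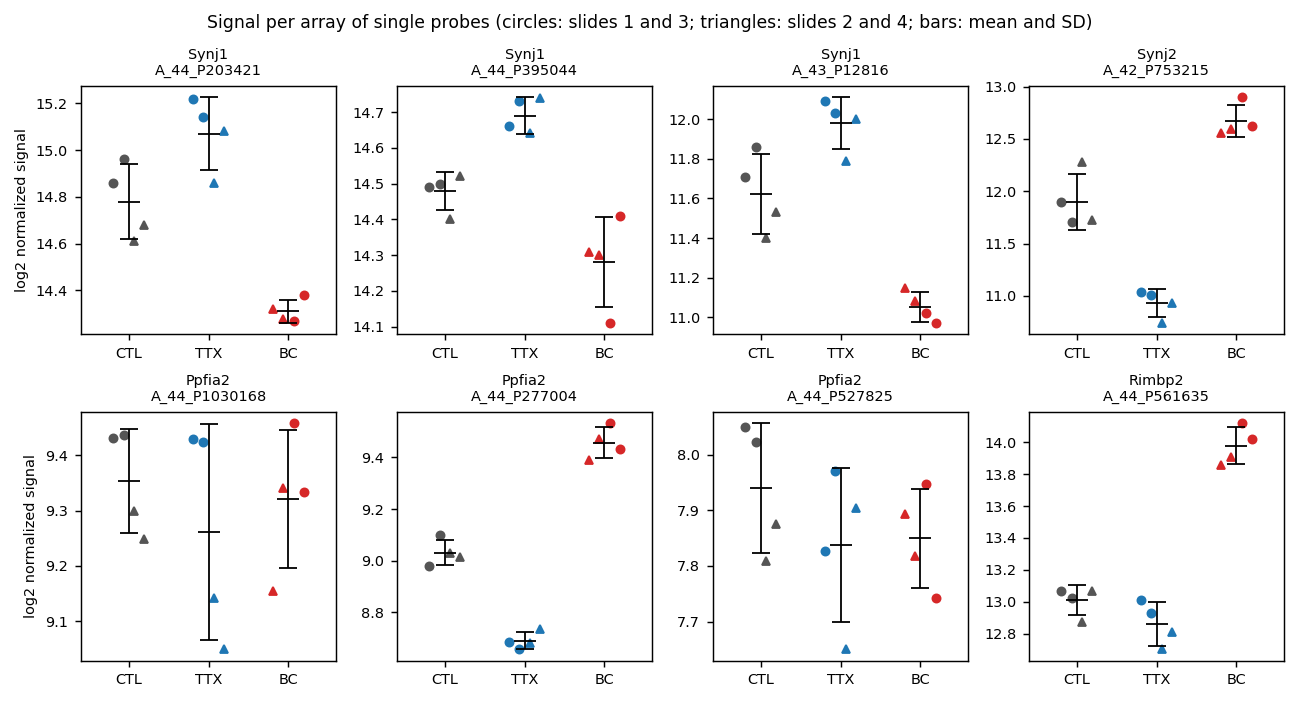
Log2 normalized signal on each array for single probes, from left to right 3 probes of Synj1 and 1 of Synj2 (top), and 3 probes of Ppfia2 and the brightest of Rimbp2 (bottom), with the mean and SD of 4 arrays. The BC mean is lowest on each Synj1 probe and highest on the Synj2 probe, and of the Ppfia2 probes 1 separates the 3 groups.

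The synucleins are small proteins that can bind vesicle membranes. Sncb, the gene of beta-synuclein, had 14.01, 13.83, 13.77 and 13.74 with CTL, 13.24, 13.15, 12.99 and 12.98 with TTX, and 13.66, 13.87, 13.98 and 14.08 with BC. The TTX arrays lay below all others, and CTL and BC overlapped. Sncb was 1.68-fold lower with TTX (-0.75, SE 0.104, adjusted p = 0.00126), by -0.73 on slides 1 and 3 and -0.77 on slides 2 and 4, and differed by 0.06 with BC (adjusted p = 0.868). It kept its TTX call under all 24 alternatives, the only member to do so among the TTX calls. Its 60-base probe lies at chr17:15908423-15911560 (rn4), a span of 3138 bases that holds at least 1 intron, and is shown because of that stability.

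Sncb probe: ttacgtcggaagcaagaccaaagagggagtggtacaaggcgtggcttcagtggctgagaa

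Sncg, the gene of gamma-synuclein, had 4.92, 5.30, 4.76 and 4.52 with CTL, 4.99, 4.67, 4.41 and 4.66 with TTX, and 5.46, 5.50, 6.02 and 6.23 with BC. The BC arrays were above all CTL and TTX arrays, and CTL and TTX overlapped. Sncg was 1.90-fold higher with BC (0.93, SE 0.214, adjusted p = 0.0225), by 1.01 on slides 1 and 3 and 0.84 on slides 2 and 4. Its TTX difference was -0.19 (adjusted p = 0.709). The Sncg call was lost without CTL replicate 1, 3 or 4 or BC replicate 3 or 4 (adjusted p from 0.0542 to 0.071), and when replicate number was a block (adjusted p = 0.0869).

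**Figure D4:**
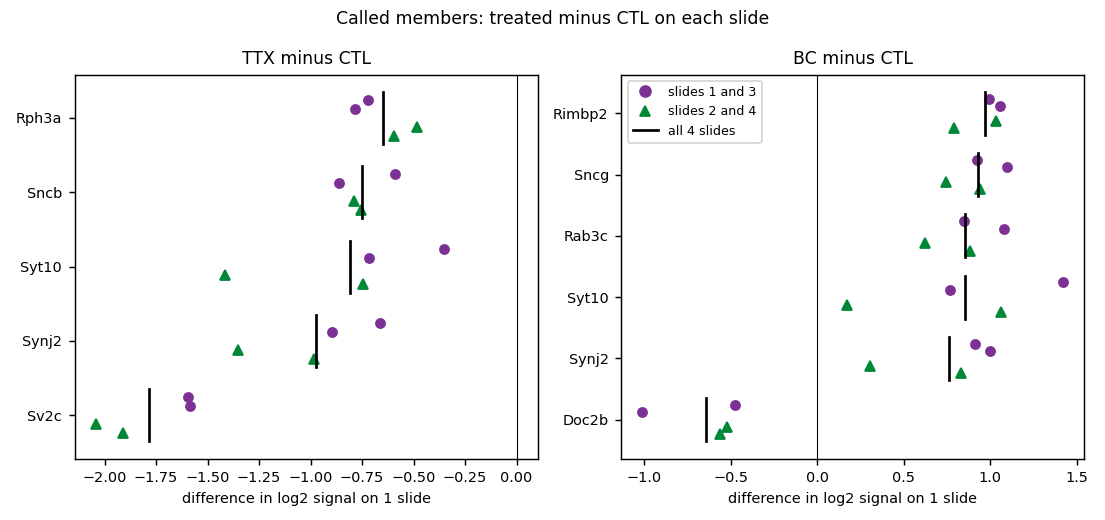
Difference in log2 signal between the treated and the CTL array of the same slide for the members called with TTX (left) or BC (right), with a black line at the difference over all 4 slides. Every point of the TTX panel is below 0, and in the BC panel the points of Doc2b are below 0 and all others above it, down to 0.17 for Syt10 on slide 2.

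Set directly against each other, TTX and BC separated Sv2c, Synj2, Syt10, Rab3c, Sncg, Rimbp2, Rph3a, Sncb, Rims2 and Stx1a (lower with TTX) and Syt7, Doc2b, Synj1 and Vamp1 (higher with TTX). Syt7, Vamp1, Stx1a, Rims2 and Synj1 were called in this comparison alone. Lower with TTX were Rab3c (2.31-fold, -1.21, SE 0.125, adjusted p = 5.13e-05), Sncg (-1.12, adjusted p = 0.00305), Rimbp2 (-1.12, adjusted p = 6.46e-06) and Rph3a (-1.03, adjusted p = 0.00032). Syt10 was 3.17-fold lower (-1.66, adjusted p = 0.000118), and Doc2b was 2.06-fold higher (1.04, adjusted p = 0.00019). With normexp background correction these differences were -0.47 for Syt10, 0.55 for Doc2b and -0.39 for Sncg, and with the deposited values -0.55, 0.58 and -0.51, all under the fold threshold. Another 5 members passed the adjusted p above 0 and 9 below 0 with folds under the threshold. In the active zone and RAB3 group 7 of 14 passed the adjusted p below 0 and 0 above. Of all names 23.4% passed either way, and 30.7% with dim names left out. At an unadjusted p under 0.05 the counts of the group were the same.

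**Figure D5:**
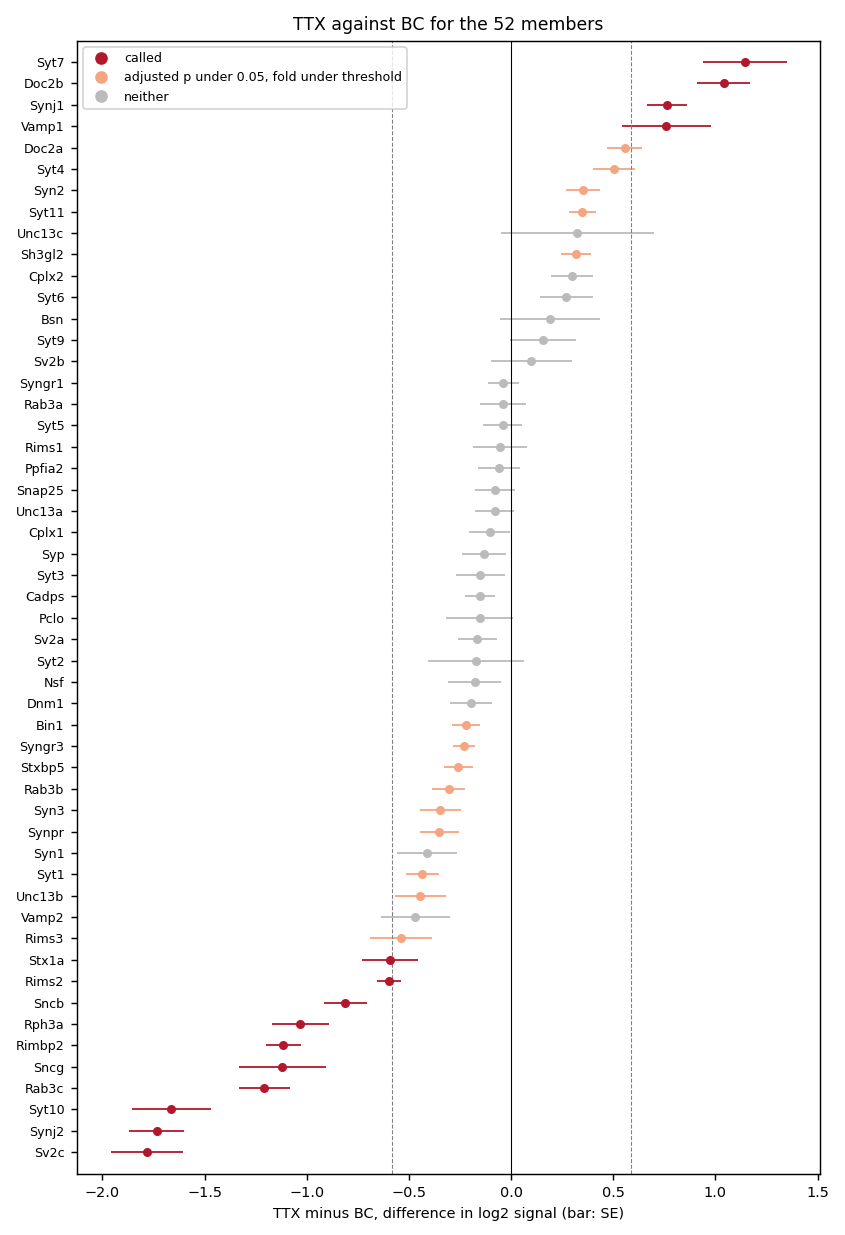
TTX minus BC in log2 signal for the 52 members, ordered by size, with SE bars and colored by call. Below 0 are Synj2 (-1.73) and Syt10 (-1.66), and at the high end are Syt7 (1.14) and Doc2b (1.04). Sv2c is drawn at its measured value although its change is only a bound (at least 1.96-fold lower on this signal scale).

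The promoters of members that moved are shown for the synaptojanin relatives, which moved in opposite directions, for Sncb, and for Vamp1. Vamp1 was called in TTX against BC alone, and is the only called member whose promoter held the full element defined below. They are the 250 bases before the RefSeq start on the GRCr8 assembly, 5′ to 3′ on the gene's strand. A promoter was given for 40 of the 52 members and 9 of the 14 called in any comparison. The capitals mark TGACG on either strand, the core of the cAMP response element, which CREB binds, and the full element TGACGTCA holds the core on both strands, so the searches overlap. Synj2 has 2 start entries, and the first is shown. They lie at chr1:48923578-48923827 (Synj2, plus strand), chr11:43755527-43755776 (Synj1, minus strand), chr17:9851684-9851933 (Sncb, plus strand) and chr4:159698644-159698893 (Vamp1, plus strand).

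Synj2: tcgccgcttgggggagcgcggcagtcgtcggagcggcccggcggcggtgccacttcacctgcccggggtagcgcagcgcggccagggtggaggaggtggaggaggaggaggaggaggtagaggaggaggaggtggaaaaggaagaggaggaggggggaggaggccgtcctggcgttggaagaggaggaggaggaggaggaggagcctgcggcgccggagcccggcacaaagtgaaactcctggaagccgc
Synj1: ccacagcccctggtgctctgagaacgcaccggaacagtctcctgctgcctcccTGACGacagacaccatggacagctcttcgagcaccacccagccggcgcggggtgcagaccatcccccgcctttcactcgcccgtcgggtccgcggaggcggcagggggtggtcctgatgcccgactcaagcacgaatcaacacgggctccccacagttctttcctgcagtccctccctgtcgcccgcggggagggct
Sncb: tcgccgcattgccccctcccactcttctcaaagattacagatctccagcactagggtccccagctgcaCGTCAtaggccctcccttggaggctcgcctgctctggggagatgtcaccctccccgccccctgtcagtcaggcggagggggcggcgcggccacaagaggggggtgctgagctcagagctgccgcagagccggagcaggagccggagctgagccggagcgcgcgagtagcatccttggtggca
Vamp1: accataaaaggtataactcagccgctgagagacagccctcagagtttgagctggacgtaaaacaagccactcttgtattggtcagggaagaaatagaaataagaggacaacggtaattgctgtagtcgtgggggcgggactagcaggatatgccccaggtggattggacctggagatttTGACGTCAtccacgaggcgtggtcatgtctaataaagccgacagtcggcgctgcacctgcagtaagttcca

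The core was in 3 of the 9 promoters of called members (Sncb, Synj1 and Vamp1), in 12 of the 40 member promoters (30%) and in 18.2% of all 33465 promoters of this length. All 3 are among the promoters shown, so those shown do not stand for the 9. The full TGACGTCA was in 3 of the 40 (7.5%) and in 1.59% of all promoters, and among the called members in Vamp1. The EGR motif GCGNGGGCG was in 9 of the 40 (22.5%), in none of the 9 called and in 4.29% of all, and the GC box GGGCGG in 27 of the 40 (67.5%) and 30.5% of all. CACGTG was in 2 of the 40 (5.59% of all) and TATAAA in 0 (12.9% of all). Both strands were searched, and GCGNGGGCG and GGGCGG can overlap. The median GC content was 65.4% over the member promoters and 51.2% over all, and differences in motif share were not adjusted for it.

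Of 90 other listed genes of the same pathway, 81 were measured. With TTX 1 was higher and 9 lower than CTL (12.3%, against 4.19% of all names), and with BC 1 was higher and 2 lower (3.7%, against 3.6%). Among the SNARE regulators and synaptotagmins, Stxbp2, a MUNC18 relative, was lower with TTX by 0.74 (adjusted p = 0.00096), Syt12 by 0.80 (adjusted p = 0.000467) and Syt17 by 0.70 (adjusted p = 0.000198). In the RAB and active zone list Rab27b, the GTPase that binds rabphilin, was lower by 0.74 (adjusted p = 0.00473), Unc13d, a MUNC13 relative of secretory cells, by 0.95 (adjusted p = 0.000889) and Lin7b by 0.85 (adjusted p = 0.000706). Lin7a and Lin7b encode relatives of a presynaptic scaffold: with BC, Lin7a was 1.06 higher (adjusted p = 0.000265) and Lin7b 0.60 lower (adjusted p = 0.00647). None of 12 further vesicle membrane genes and none of 20 further endocytosis genes was called with TTX or BC against CTL by limma, and at an unadjusted p under 0.05, 3 of the former were under CTL with TTX and 1 over CTL with BC, while of the latter 4 were under and 1 over CTL with TTX, and 1 under and 4 over CTL with BC.

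Of 8 vesicular transporter genes, 4 were called with TTX. Slc32a1, which loads GABA and glycine, was lower by 1.03 (SE 0.0732, adjusted p = 2.01e-05), Slc30a3, the zinc transporter of glutamatergic vesicles, by 1.47 (adjusted p = 2.71e-06) and Slc18a1, a monoamine transporter, by 0.81 (adjusted p = 0.000226). Slc17a6, which loads glutamate, was 0.59 higher (adjusted p = 0.000422). Slc17a7, the other main glutamate transporter, differed by 0.18 with TTX (SE 0.19, adjusted p = 0.687) and -0.29 with BC (adjusted p = 0.483). With BC, Slc30a3 was 0.62 lower (adjusted p = 0.000703) and Slc32a1 differed by -0.19 (adjusted p = 0.177).

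In the same arrays markers of cell classes moved too. Of 19 measured markers of GABAergic interneurons, 10 fell with TTX and 1 (Calb2) rose. With BC 2 of them rose and 1 fell, and the median difference was 0.06. The summed linear signal of the 19 was 393000 to 450000 with CTL, 205000 to 225000 with TTX and 495000 to 589000 with BC. Gad1 was 1.56 lower and Sst 1.69 lower with TTX. Of 8 measured glutamatergic markers, 2 rose with TTX and 3 fell with BC, with summed signals of 29100 to 36900, 41400 to 48100 and 22500 to 26100. Of 13 measured markers of endothelial, mural and fibroblast cells, 3 fell with TTX and 3 rose with BC, with summed signals of 12000 to 14900, 8790 to 10200 and 19500 to 26300, and Pecam1 stayed near background throughout. Of 10 measured oligodendrocyte lineage markers, 7 differences with TTX were above 0 and 3 below (median 0.18). Among those below, Pdgfra was 0.79 lower (adjusted p = 0.0128). Of 11 measured markers of all neurons, Dcx was 0.59 higher and Nefh 0.92 lower with TTX and none was called with BC, with summed signals of 703000 to 772000, 719000 to 742000 and 699000 to 713000. None of 10 astrocyte and none of 9 microglial markers was called against CTL by limma, and at an unadjusted p under 0.05 the counts were 1 and 2 with TTX and 0 and 1 with BC. Aldh1l1 of the former passed the adjusted p with TTX (0.45, adjusted p = 0.0261) and Cd68 of the latter with TTX and BC (-0.51 and -0.43, adjusted p = 0.0137 and 0.0371), all under the fold threshold. The microglial markers Aif1 and Itgam stayed near background. Interneuron, glutamatergic and vascular markers changed in the same arrays as the TTX falls of Sv2c, Syt10, Rph3a, Synj2 and Sncb and the BC rises. The called interneuron and vascular markers mostly fell with TTX, while the called glutamatergic markers rose with TTX and fell with BC. The part of these lists in the member results was not tested. In RNA from whole cultures, fewer cells of a type and less RNA per cell cannot be told apart.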

How the data were processed

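The authors hybridised Cy3-labelled RNA to whole rat genome arrays and read them with Feature Extraction 9.5.1.1, whose background-subtracted signal is a linear intensity per probe in the deposited scanner files. A deposited table of log2 values, which the authors' methods describe as quantile normalized, tracked each array's median spot signal in rank (r of at least 0.99998) and served as an alternative. Its array medians were 7.372 to 7.378, and BC replicate 2 lacked 1131 values there.

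Control spots and outlier spots (13 to 40 per array) were left out, log2 signals were quantile normalized, and limma 3.58.1 in R 4.3.3 was fitted to all 12 arrays with a mean for each group. Benjamini-Hochberg adjustment covered all probes. A call needed an adjusted p under 0.05 and a fold of at least 1.5. Where several probes named a gene, the brightest stood for it. A bound set the lowest signal well above background in place of a dim probe. The text names members called in any comparison, those that passed the adjusted p against CTL under the fold threshold, and Syn1, Syp, Syt1, Snap25, Vamp2 and Stx1a, and of the other pathway genes those called against CTL, Slc17a7 and Slc32a1. Other genes were chosen after their values were seen. The fit was tested on simulated data with independent noise on each array, so that test does not cover the slide difference. The number of arrays limits the precision.

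The members and the gene lists were chosen with earlier results of these data known. Deviations from the group means correlated at 0.587 to 0.713 between CTL and TTX arrays of the same replicate number and at -0.663 to -0.52 between CTL and BC arrays. CTL and TTX arrays of a number lay on the same pair of slides, and the BC array of that number on the other. Between arrays of different groups the correlations were 0.436 to 0.714 on the same pair of slides and -0.718 to -0.442 across pairs. The replicate number comes from the labels, which tie it to no shared culture. Alternatives were background correction, normalization, the deposited values, slide and replicate blocks, fold and probe filters, the probe rule and leaving out each array. Promoter sequences came from RefSeq (GRCr8), and probe positions from the files (rn4). One oligodendrocyte lineage result is not reported here.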

Additional observations from a re-analysis of the deposited data

Results flagged for a closer look

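In 7 of 156 sets of 4 arrays (52 members in 3 groups), 1 array stood apart from the other 3 by a gap past the critical value of Dixon's ratio for 4 values, and chance sets apart about 1 in 20 such sets. With TTX, Syt7 was 7.57 on replicate 4 and 6.63 to 6.67 on the others. Without that array Syt7 was 0.91 higher with TTX than with BC (adjusted p = 0.000555), and 0.36 from CTL (adjusted p = 0.108). Syt11 was 10.92 on TTX replicate 3 and 11.08 on the other TTX arrays, and Unc13c, which was near background throughout, was 1.47 on TTX replicate 4 and 2.80 to 3.06 on the others. With BC, Synj2 was 12.90 on replicate 3 and 12.56 to 12.62 on the others, and without that array its difference from CTL was 0.68 (adjusted p = 0.0183). Synpr was 10.71 on BC replicate 3 and 10.88 to 10.91 on the others. Cadps was 15.58 on BC replicate 2 and 15.81 to 15.84 on the others. Rims3 was 6.22 on CTL replicate 1 and 5.79 to 5.83 on the other CTL arrays.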

How the results depend on the processing

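The count of members called with TTX against CTL was 5, and it was 2 with normexp background correction, 2 with the deposited log2 values, 2 with the arrays of each pair of slides averaged, and 8 with no fold threshold. With BC against CTL the count was 6, and it was 3 with normexp, 3 with the deposited values, 0 with the slide pairs averaged (19 of 52 at an unadjusted p under 0.05) and 0 with the replicate block and only the 2 groups compared, an alternative chosen after seeing the data (13 of 52 at an unadjusted p under 0.05). For TTX against BC the count was 14, and it was 9 with normexp, 8 with the deposited values and 28 with no fold threshold. Averaging leaves 2 values in a group. In a fit with BC arrays, the replicate block joins them with CTL or TTX arrays of the other pair of slides, so it does not remove the slide difference. With CTL and TTX arrays alone each block lies on 1 pair of slides, and there Syt10 was not called (adjusted p = 0.118). Leaving out 1 array gave 4 to 5, 3 to 6 and 12 to 15 calls in the 3 comparisons, and the lowest BC count, 3, came without BC replicate 3. With the replicate number as a block the counts were 4, 4 and 14, and the block ended no call other than those of Syt10 and Sncg given above. With slide as a block they were 5, 6 and 14. No call changed direction in any alternative. Some differences near 0 that were not called did change sign, for example Sv2c, Syp, Vamp2 and Syt1 with BC and Sh3gl2 and Synpr with TTX. Sncb among the TTX calls, none of the 6 BC calls, and Rab3c, Rimbp2, Rph3a, Sncb, Synj1 and Synj2 among the 14 TTX against BC calls were made under all 24 alternatives. Signal over background limits Sv2c, Syt10 and Unc13c. The TTX calls of Sv2c, Syt10 and Rph3a, the BC calls of Syt10, Sncg and Doc2b and the TTX against BC calls of Sv2c, Syt10, Doc2b, Sncg and Rims2 came under the fold threshold both with normexp and with the deposited values. Rph3a, Doc2b, Sncg and Rims2 were well above background on all arrays. The normexp setting added 50 to each linear signal, and adding a constant makes the folds of low signals smaller. How far that lowered these folds was not tested, nor was the cause with the deposited values.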
